A study of Mus musculus with 6 samples.

Results

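Spinal motor neurons are not uniform, and the 10 genes described here are used in mouse to tell their kinds apart. Alpha motor neurons drive the force-producing fibres of skeletal muscle, whereas gamma motor neurons set the tension of the muscle spindles that sense stretch. Alpha motor neurons are further divided by the muscle fibres they serve into fast and slow types. *Mmp9* and *Chodl* mark fast motor neurons, *Spp1* and *Rbfox3* mark alpha motor neurons, *Sv2a* is enriched at slow motor neurons, and *Esrrg*, *Esrrb*, *Wnt7a* and *Htr1d* mark gamma motor neurons. *Stk32a*, of a serine/threonine kinase, was listed with them and was placed in neither class. The genes were chosen by name, with earlier results of these data known. All 10 were found, each as a single row, among the 53858 genes of the count table.

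Poly(A) RNA had been sequenced from pools of picked motor neurons of WT mice on day 6 after a sciatic nerve crush, an injury that every library shares. The DiO+/DiI+ group (3 pools) held neurons with both retrograde carbocyanine dyes, and the DiO+/DiI- group (3 pools) held neurons with DiO and no DiI. DiO, applied on day 0 on the near side of the crush, stains the injured motor neurons, and DiI, applied further down the nerve on day 2, stains those whose regrowing axons got there first. The comparison asks which transcripts differ between neurons that regrew early and injured neurons without the distal dye. Per the labels, 10 to 15 cells were picked for a pool and up to 20 lysed. A rare kind of motor neuron may therefore be missing from a pool by sampling. The labels give no age, sex or strain. Separate animals are not stated for the pools either, so the spread that enters a p-value may be technical.

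Total counts were 2997714 to 6563403 in the DiO+/DiI+ pools and 3747145 to 6505086 in the DiO+/DiI- pools. Levels are given as CPM, counts relative to a TMM-scaled library size, and 3 counts in a library corresponded to 0.402 to 1.10 CPM. All 7 motor neuron markers checked, among them *Chat* and *Isl1*, were detected, with a summed level of 2519 to 3745 CPM in the DiO+/DiI+ pools and 2439 to 4135 CPM in the DiO+/DiI- pools. The largest parts were *Prph*, at 1011 to 3037 CPM over all libraries, and *Slc18a3*, at 455 to 952 CPM. *Chat* stood at 59.6 to 142 CPM and *Isl1* at 16.5 to 35.7 CPM. Libraries also held other transcripts. The summed level of 8 oligodendrocyte markers was 1421 to 4908 CPM in the DiO+/DiI+ pools and 278 to 574 CPM in the DiO+/DiI- pools, with no overlap. The number of genes with a count was lower in the DiO+/DiI+ pools, at 15657 to 16467, than in the DiO+/DiI- pools, at 17229 to 22118. In such pools fewer cells of a kind and less RNA per cell cannot be told apart.

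Upstream sequences are shown for the most abundant fast and alpha marker, the genes with the most reads behind their values. The lines give the 250 bases upstream of the RefSeq start, on build GRCm38.p6 and read 5′ to 3′ along the plus strand, where *Chodl* lies at chr16:78930698-78930947 and *Spp1* at chr5:104434861-104435110. Capitals mark a TATAAA match.
Chodl: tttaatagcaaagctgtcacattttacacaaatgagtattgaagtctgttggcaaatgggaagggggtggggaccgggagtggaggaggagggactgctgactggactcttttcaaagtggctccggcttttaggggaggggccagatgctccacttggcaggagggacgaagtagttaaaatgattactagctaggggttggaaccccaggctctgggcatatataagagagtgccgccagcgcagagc
Spp1: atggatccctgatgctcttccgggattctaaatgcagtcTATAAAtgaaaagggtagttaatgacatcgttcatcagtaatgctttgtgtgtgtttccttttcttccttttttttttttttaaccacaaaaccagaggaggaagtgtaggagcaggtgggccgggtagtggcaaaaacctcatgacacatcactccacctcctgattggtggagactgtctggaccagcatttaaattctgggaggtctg
The letters TATAAA, of the TATA box, stood in the windows of *Spp1* and *Esrrg* and in 12.4% of 32817 mouse promoter windows of this length, searched on both strands. The *Spp1* match lay far from the start, and the *Esrrg* match was on the other strand. The letters tatataag near the start of *Chodl* are not an exact match and were not marked. Whether any of these acts as a TATA box was not tested. AAGGTCA, the half-site that the receptors made by *Esrrb* and *Esrrg* bind, stood in 4.08% of windows and in 0 of the 8 members that had an entry. TGAGTCA, the element of AP-1 factors, stood in 4.46% of windows and in that of *Esrrg* alone among these 8. For each member only the entry nearest the gene start was searched, though some had more, such as *Esrrg* with 4. The *Rbfox3* window, at chr11:118761042-118761291, lay inside the gene and not at its annotated start.

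Compared per length, the members spanned several orders of magnitude. *Spp1* stood far above the others, with a median over the 6 libraries of 2074 CPM per kb of merged exons and a range of 1630 to 4006. *Chodl* followed with a median of 50.7 (range 30.5 to 208) and *Rbfox3* with 24.7 (range 17.7 to 32.8), all in CPM per kb. Next came *Sv2a* with a median of 11.6 (range 0.0289 to 13.2) and *Mmp9* with 9.92 (range 0.566 to 24.8). *Stk32a* had a median of 4.58 and *Esrrg* of 1.32 CPM per kb. *Wnt7a* and *Esrrb* had medians of 0.511 and 0.128 CPM per kb and were at 0 in some libraries. The ranges of neighbours in this order did not overlap between *Spp1* and *Chodl* and between *Rbfox3* and *Sv2a*, and they overlapped at every other step down to *Esrrb*. *Htr1d* had 0 counts in every library.

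**Figure D1:**
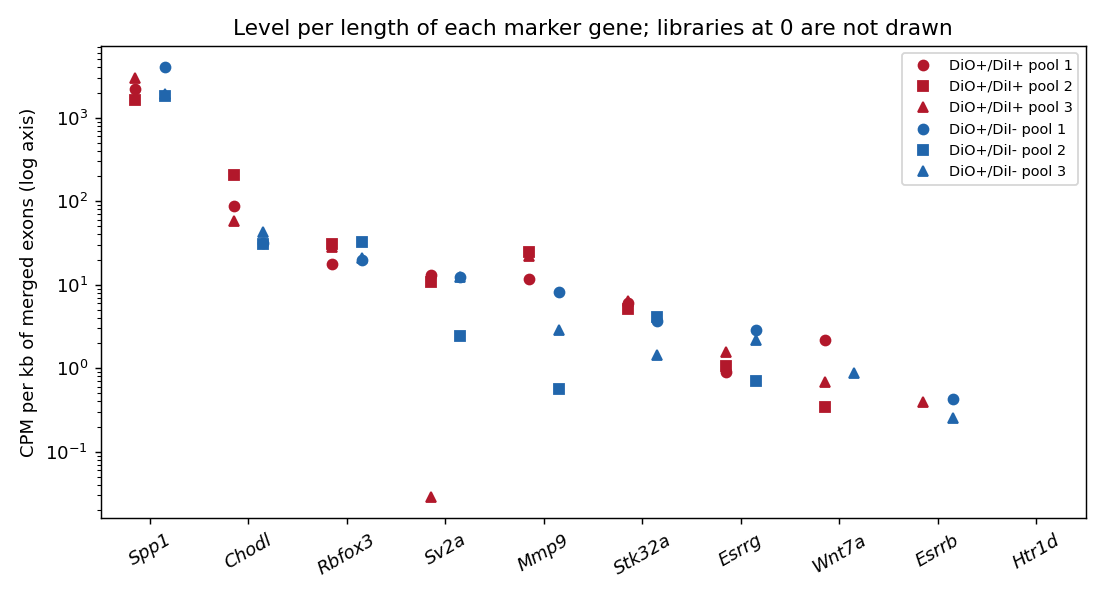
Level of each marker gene as CPM per kb of merged exons on a log axis, with a point for each library; DiO+/DiI+ pools are red and stand left of the blue DiO+/DiI- pools, and libraries at 0 are not drawn. The *Spp1* points, from 1630 to 4006, lie above all others, and a single *Sv2a* point lies at 0.0289.

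The fast motor neuron markers were the members with the smallest p between the groups, and neither passed the adjusted threshold. The mean level in DiO+/DiI+ pools was 3.37 times that in DiO+/DiI- pools for *Chodl* and 5.06 times for *Mmp9*. *Chodl*, *Mmp9* and *Stk32a* were higher in all 3 DiO+/DiI+ pools than in any DiO+/DiI- pool. The alpha markers *Spp1* and *Rbfox3* overlapped between the groups, as did all gamma and slow members that had counts. Of the 10 members, 8 passed the filter on low counts and were tested with edgeR's quasi-likelihood test. After Benjamini-Hochberg adjustment over 12954 genes, 0 of the 8 passed 0.05, where 0% of all tested genes passed. At an unadjusted p under 0.05 there were 2 members higher in the DiO+/DiI+ pools, *Chodl* and *Mmp9*, where 3.18% of all tested genes were higher, and 0 lower, where the share was 2.63%. DESeq2, run without the filter on low counts but with its own default filter on mean count, put *Chodl* past the threshold and *Mmp9* not. This run put 75 of 28406 genes with a p-value past it. Without either filter, edgeR put *Chodl* and *Mmp9* past the threshold, with 79 of 28513 genes past it in all. Groups that did not overlap were found for 3 of the 8 upward, against 5.86% of all tested genes, and for 0 downward, against 7.07%.

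**Figure D2:**
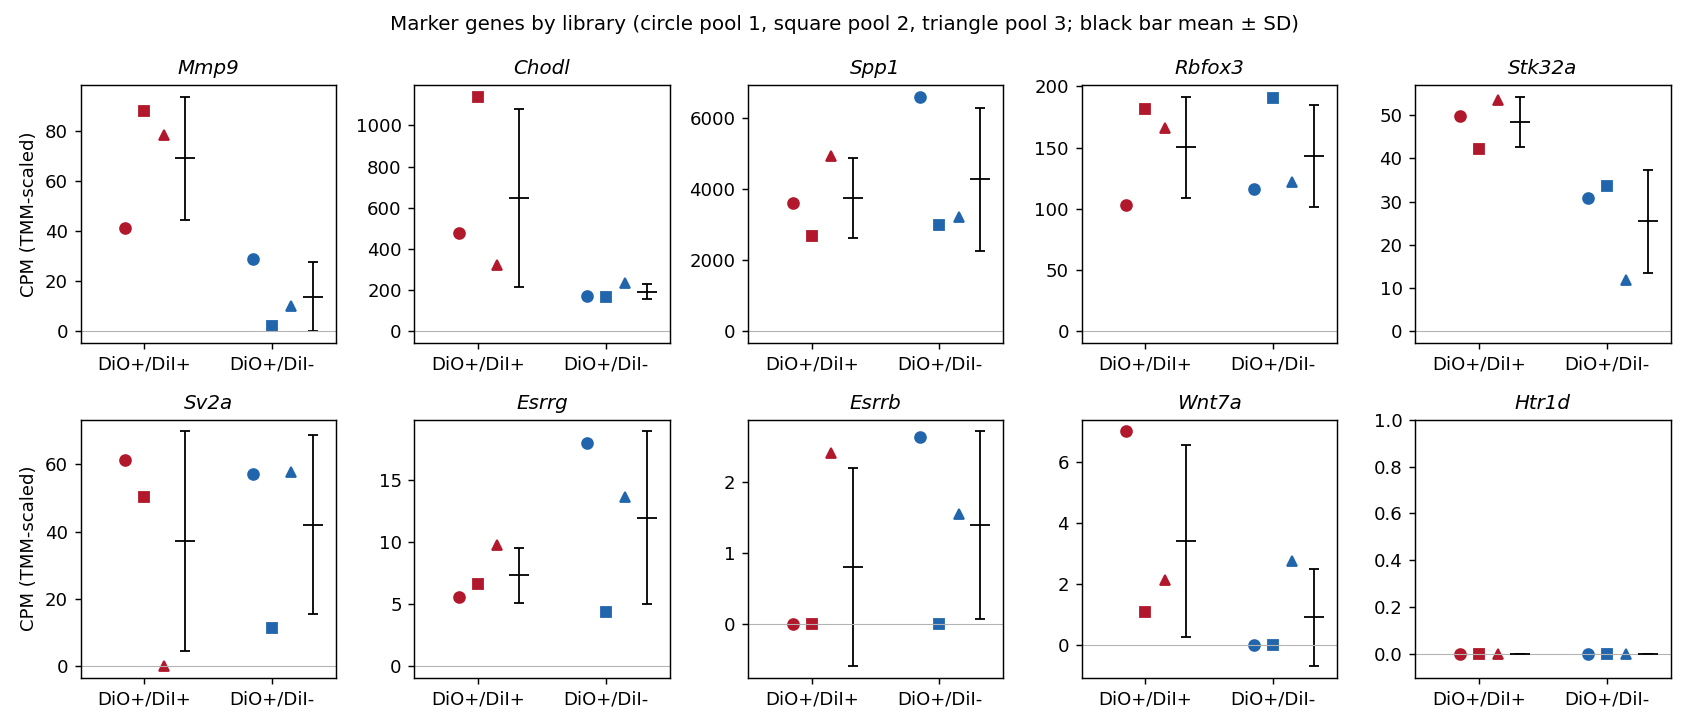
CPM of each of the 10 marker genes in every library, DiO+/DiI+ pools (red) left of DiO+/DiI- pools (blue), with the mean and SD of 3 pools in black; each panel has its own linear axis. The groups are apart for *Mmp9*, *Chodl* and *Stk32a* and overlap for the others, and *Htr1d* is at 0 throughout.

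*Chodl* encodes chondrolectin, a transmembrane protein with a C-type lectin domain (ENSMUSG00000022860; mm10 chromosome 16, 78930948 to 78951733, plus strand, 7 merged exons). It had 2329, 3114 and 2399 counts in DiO+/DiI+ pools 1, 2 and 3, against 1187, 501 and 1370 counts in DiO+/DiI- pools 1, 2 and 3. As levels these were 479, 1140 and 321 CPM in the DiO+/DiI+ pools and 173, 167 and 235 CPM in the DiO+/DiI- pools. The DiO+/DiI- pools lay close together, and DiO+/DiI+ pool 2 was far above its group. The mean was 647 ± 434 CPM in DiO+/DiI+ pools and 192 ± 37.7 CPM in DiO+/DiI- pools (SD, n = 3 each). The log2 fold change was 1.75 ± 0.45 (SE), with an edgeR unadjusted p of 0.00227 and an adjusted p of 0.486. With DESeq2 the adjusted p was 0.0310, and with edgeR and no filter on low counts it was 0.00122. Without DiO+/DiI+ pool 2 the log2 fold change was 1.04. By count, *Chodl* ranked 67 to 342 among all genes in the DiO+/DiI+ pools and 562 to 1014 in the DiO+/DiI- pools.

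*Mmp9* encodes matrix metalloproteinase 9, a secreted protease that in mouse is found in fast motor neurons, those lost first in models of motor neuron disease (ENSMUSG00000017737; mm10 chromosome 2, 164940780 to 164955850, plus strand, 15 merged exons). It had 201, 240 and 585 counts in DiO+/DiI+ pools 1, 2 and 3, against 198, 6 and 59 counts in DiO+/DiI- pools 1, 2 and 3. The levels were 41.3, 87.8 and 78.4 CPM in the DiO+/DiI+ pools and 28.9, 2.00 and 10.1 CPM in the DiO+/DiI- pools. Every DiO+/DiI+ pool was above every DiO+/DiI- pool, though DiO+/DiI+ pool 1 and DiO+/DiI- pool 1 were near each other. The mean was 69.2 ± 24.6 CPM in DiO+/DiI+ pools and 13.7 ± 13.8 CPM in DiO+/DiI- pools (SD, n = 3 each), with a log2 fold change of 2.30 ± 0.71 (SE), an edgeR unadjusted p of 0.00729 and an adjusted p of 0.617. The adjusted p was 0.0700 with DESeq2 and 0.00122 with edgeR and no filter on low counts. The log2 fold change was 3.44 without DiO+/DiI- pool 1 and 1.82 without DiO+/DiI- pool 2.

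Neutrophils also make *Mmp9*. Their defining markers *S100a8* and *S100a9* had 0 counts in every library, and the summed level of 4 neutrophil markers was 0 to 0.134 CPM in the DiO+/DiI+ pools and 0.344 to 3.36 CPM in the DiO+/DiI- pools. *Ly6g* had 23 counts in DiO+/DiI- pool 1, the pool with the highest *Mmp9* of its group, and the part of neutrophil transcripts in *Mmp9* was not tested. Both fast markers were higher in the pools with more oligodendrocyte transcripts, and the part of this in their levels was not tested. Within the DiO+/DiI+ group, *Chodl* and *Mmp9* were highest in pool 2, which had the lowest oligodendrocyte sum of that group, 1421 CPM, where pools 1 and 3 had 2903 and 4908 CPM. Within the DiO+/DiI- group, where these sums were 574, 278 and 554 CPM in pools 1, 2 and 3, *Mmp9* had the same order as the sums, and *Chodl* was lowest in pool 2 and highest in pool 3. Libraries were also scaled to the summed counts of the 9 tested motor neuron identity genes in place of TMM. This scaling was chosen after the data were seen. *Nefm*, *Nefl* and *Prph* held most of these counts, with 376593, 288019 and 65586 over all libraries, and *Slc18a3* followed with 21158. With this scaling the log2 fold changes were 2.39 ± 0.62 (SE) for *Mmp9* and 1.69 ± 0.50 for *Chodl* (edgeR adjusted p = 0.129 and 0.296).

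*Stk32a* (ENSMUSG00000039954; mm10 chromosome 18, 43207583 to 43318682, plus strand) was the third member whose groups were apart. Its levels were 49.9, 42.1 and 53.5 CPM in DiO+/DiI+ pools 1, 2 and 3, against 30.8, 33.7 and 11.9 CPM in DiO+/DiI- pools 1, 2 and 3. The DiO+/DiI+ pools were the most even of any detected member within a group, relative to the mean, and DiO+/DiI- pool 3 was the low library of the other group. The mean was 48.5 ± 5.82 CPM in DiO+/DiI+ pools and 25.5 ± 11.9 CPM in DiO+/DiI- pools (SD, n = 3 each), and the log2 fold change of 0.94 ± 0.45 (SE) did not pass (edgeR unadjusted p = 0.0588, adjusted p = 0.871). Without DiO+/DiI- pool 3 it was 0.58. *Mal*, a myelin gene of oligodendrocytes, was among the 3 genes whose pattern over the libraries was most like that of *Stk32a*, and the part of oligodendrocyte transcripts in its level was not tested.

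The alpha motor neuron markers showed no difference beyond the spread between pools. *Spp1* encodes osteopontin, a secreted phosphoprotein (ENSMUSG00000029304; mm10 chromosome 5, 104435118 to 104441050, plus strand, 8 merged exons). It stood at 3622, 2685 and 4923 CPM in DiO+/DiI+ pools 1, 2 and 3, against 6602, 3001 and 3213 CPM in DiO+/DiI- pools 1, 2 and 3. The highest library was DiO+/DiI- pool 1 and the lowest DiO+/DiI+ pool 2, and the other 4 lay between them. The mean was 3743 ± 1124 CPM in DiO+/DiI+ pools and 4272 ± 2021 CPM in DiO+/DiI- pools (SD, n = 3 each). The log2 fold change was -0.19 ± 0.41 (SE; adjusted p = 0.987 in edgeR), and without DiO+/DiI- pool 1 the log2 fold change was 0.26. *Spp1* ranked 12 to 34 among all genes by count in the DiO+/DiI+ pools and 10 to 43 in the DiO+/DiI- pools.

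Macrophages and microglia also make osteopontin. The 10 microglia and macrophage markers summed to 22.3 to 66.5 CPM in the DiO+/DiI+ pools and 49.1 to 58.8 CPM in the DiO+/DiI- pools. Of these, *Csf1r* had 645 counts over all 6 libraries, at 16.6, 14.6 and 15.4 CPM in DiO+/DiI+ pools 1, 2 and 3, against 23.8, 28.4 and 27.7 CPM in DiO+/DiI- pools 1, 2 and 3. *C1qa* had 97 counts, 65 of them in DiO+/DiI+ pool 3, *Cx3cr1* had 80, 77 of them in the same pool, and *Cd68* had 46, all in DiO+/DiI- pools. *Spp1* had 134635 counts, and the part of macrophage and microglia transcripts in its level was not tested. *Spp1* shares 309 bases of exon with the predicted gene Gm42793 on the same strand, which had 26 counts in all.

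*Rbfox3* encodes NeuN, a splicing regulator that is high in alpha and low in gamma motor neurons and present in most other neurons (ENSMUSG00000025576; mm10 chromosome 11, 118489762 to 118911597, minus strand). It stood at 103, 181 and 166 CPM in DiO+/DiI+ pools 1, 2 and 3, against 116, 191 and 122 CPM in DiO+/DiI- pools 1, 2 and 3. The groups overlapped almost entirely, and the highest library was 1.85 times the lowest, the narrowest range of any member with counts in every library. The mean was 150 ± 41.5 CPM in DiO+/DiI+ pools and 143 ± 41.6 CPM in DiO+/DiI- pools (SD, n = 3 each). This was a log2 fold change of 0.07 ± 0.35 (SE), with an adjusted p of 0.991 in edgeR. The sign of this small value turned in 4 of the 6 runs that left out a library.

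Among the gamma and slow markers, *Sv2a*, *Esrrb* and *Wnt7a* each had at least 1 library with at most 1 count, *Esrrg* was detected in every library and *Htr1d* in none. *Sv2a* encodes a glycoprotein of synaptic vesicles that neurons use broadly and that slow motor neurons retain (ENSMUSG00000038486; mm10 chromosome 3, 96181151 to 96195521, plus strand, 13 merged exons). It had 298, 137 and 1 counts in DiO+/DiI+ pools 1, 2 and 3, against 391, 34 and 336 counts in DiO+/DiI- pools 1, 2 and 3. As levels these were 61.2, 50.1 and 0.134 CPM in the DiO+/DiI+ pools and 57.0, 11.4 and 57.7 CPM in the DiO+/DiI- pools. DiO+/DiI+ pool 3, the library with the most counts of all, held a single read of this gene, DiO+/DiI- pool 2 was low, and the other 4 libraries were alike. Of 3524 genes that averaged at least as much as *Sv2a* in the 5 other libraries (47.5 CPM), 1, *Sv2a* itself, had at most 1 count in that pool. The same count was 2 of 3506 genes for DiO+/DiI+ pool 1 and 0 for each of the other libraries. The mean was 37.2 ± 32.5 CPM in DiO+/DiI+ pools and 42.0 ± 26.6 CPM in DiO+/DiI- pools (SD, n = 3 each). This was a log2 fold change of -0.20 ± 1.30 (SE), with an adjusted p of 0.993 in edgeR, and the log2 fold change was 0.39 without DiO+/DiI+ pool 3 and -2.18 with limma voom and quality weights.

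*Esrrg* and *Esrrb* encode orphan nuclear receptors related to the estrogen receptor, which mark gamma motor neurons after birth. *Esrrg* (ENSMUSG00000026610; mm10 chromosome 1, 187608791 to 188214885, plus strand) stood at 5.55, 6.59 and 9.78 CPM in DiO+/DiI+ pools 1, 2 and 3, against 17.9, 4.34 and 13.6 CPM in DiO+/DiI- pools 1, 2 and 3. DiO+/DiI- pools 1 and 3 were above the others, and DiO+/DiI- pool 2 was the lowest of the 6. The mean was 7.31 ± 2.21 CPM in DiO+/DiI+ pools and 11.95 ± 6.94 CPM in DiO+/DiI- pools (SD, n = 3 each). This was a log2 fold change of -0.71 ± 0.72 (SE), with an adjusted p of 0.970 in edgeR. The log2 fold change was -0.31 without DiO+/DiI- pool 1 and -1.10 without DiO+/DiI- pool 2. *Esrrb* (ENSMUSG00000021255; mm10 chromosome 12, 86361117 to 86521628, plus strand) had 0, 0 and 18 counts in DiO+/DiI+ pools 1, 2 and 3, against 18, 0 and 9 counts in DiO+/DiI- pools 1, 2 and 3, too few for the test. The 3 libraries with *Esrrb* counts were the 3 with the highest *Esrrg* levels.

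Interneurons can also express these receptors. DiO+/DiI- pools 1 and 3, the highest for *Esrrg*, also had the highest summed levels of the 7 interneuron markers, 67.8 and 115 CPM. DiO+/DiI- pool 2 had 9.35 CPM, and the DiO+/DiI+ pools had 4.76 to 23.6 CPM. The 2 high sums came from different genes. *Slc17a6* stood at 62.6 CPM in DiO+/DiI- pool 1 and at 7.90 CPM in DiO+/DiI- pool 3, where other genes of the list held most of the sum. The part of interneuron transcripts in the *Esrrg* and *Esrrb* levels was not tested.

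*Wnt7a*, a secreted Wnt ligand that marks gamma motor neurons early in development (ENSMUSG00000030093; mm10 chromosome 6, 91363981 to 91411363, minus strand), had 34, 3 and 16 counts in DiO+/DiI+ pools 1, 2 and 3, against 0, 0 and 16 counts in DiO+/DiI- pools 1, 2 and 3. It was found in all 3 DiO+/DiI+ pools but in a single DiO+/DiI- pool, and the groups overlapped. The mean was 3.41 ± 3.14 CPM in DiO+/DiI+ pools and 0.916 ± 1.59 CPM in DiO+/DiI- pools (SD, n = 3 each). This was a log2 fold change of 1.83 ± 1.70 (SE), with an adjusted p of 0.970 in edgeR. *Htr1d*, of the serotonin receptor 1D (ENSMUSG00000070687; mm10 chromosome 4, 136423524 to 136444398, plus strand), had 0 counts in all 6 libraries. That allows a level of up to 0.402 to 1.10 CPM in the DiO+/DiI+ pools and 0.438 to 1.00 CPM in the DiO+/DiI- pools, counting error only.

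Taken by class, the markers of alpha and fast neurons stood higher relative to those of gamma and slow neurons in 2 of the 3 DiO+/DiI+ pools than in any DiO+/DiI- pool. The mean log2 CPM over *Mmp9*, *Chodl*, *Spp1* and *Rbfox3* was 8.20, 8.88 and 8.57 in DiO+/DiI+ pools 1, 2 and 3, against 7.97, 6.94 and 7.47 in DiO+/DiI- pools 1, 2 and 3, with no overlap. That over *Sv2a*, *Esrrg*, *Esrrb*, *Wnt7a* and *Htr1d* was 1.74, 1.26 and 0.78 in the DiO+/DiI+ pools and 1.78, 0.35 and 2.18 in the DiO+/DiI- pools, with overlap. The difference of both means was 7.29 ± 0.72 in DiO+/DiI+ pools and 6.02 ± 0.67 in DiO+/DiI- pools (log2 scale, SD, n = 3 each). DiO+/DiI+ pool 1, at 6.46, lay below DiO+/DiI- pool 2, at 6.60. Between the group means this difference was 1.27 higher in the DiO+/DiI+ pools. The members of a class did not all move with its mean. By gene, the log2 fold changes were 2.30 for *Mmp9* and 1.75 for *Chodl*, against -0.19 for *Spp1* and 0.07 for *Rbfox3*. On the gamma and slow side, *Htr1d* had 0 counts, and *Esrrb* and *Wnt7a* had 45 and 69 over all libraries. *Sv2a* had 1 count in DiO+/DiI+ pool 3, the lowest of its group for the gamma and slow mean. The oligodendrocyte sums given above separated the groups in the same way as the alpha and fast means, and their part in these was not tested. No p is given for these means because the members were chosen with results known.

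**Figure D3:**
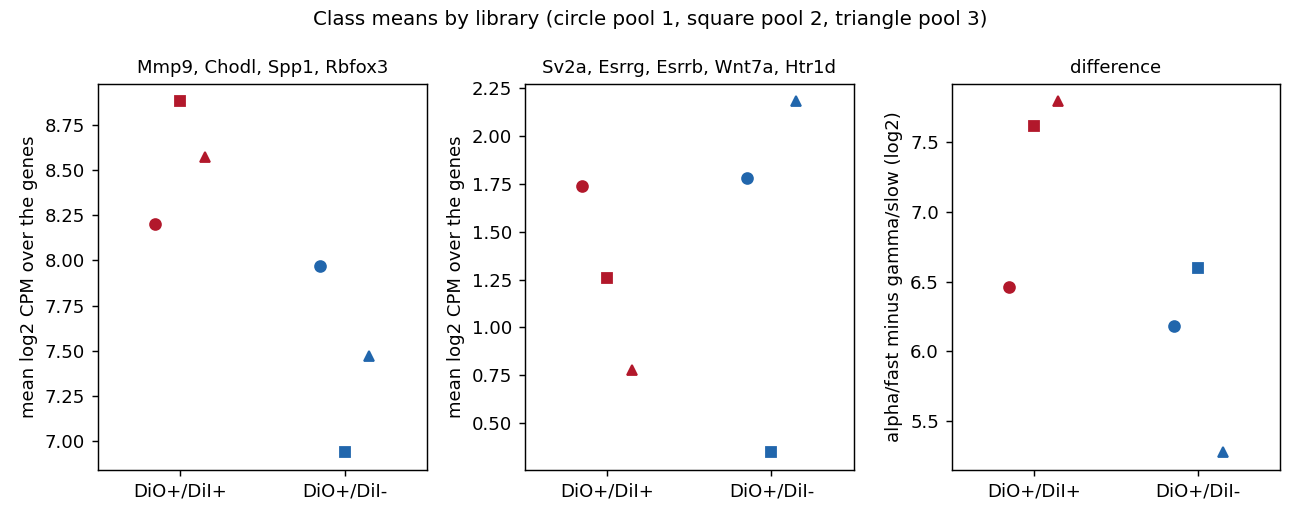
Mean log2 CPM over the alpha and fast members (left panel), over the gamma and slow members (middle panel) and their difference (right panel) in each library, DiO+/DiI+ pools left of DiO+/DiI- pools; axes do not start at 0. The alpha and fast means do not overlap (8.20 to 8.88 against 6.94 to 7.97), the gamma and slow means do, and the differences overlap at 6.46 and 6.60.

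Ratios between members within a library do not depend on the scaling. The log2 ratio of *Mmp9* to *Esrrg* counts, with 0.5 added to each count, was 2.87, 3.70 and 2.99 in DiO+/DiI+ pools 1, 2 and 3, against 0.68, -1.05 and -0.42 in DiO+/DiI- pools 1, 2 and 3, with no overlap. For *Chodl* to *Esrrg* the log2 ratios were 6.40, 7.40 and 5.03 in the DiO+/DiI+ pools and 3.27, 5.22 and 4.11 in the DiO+/DiI- pools, where DiO+/DiI+ pool 3 fell below DiO+/DiI- pool 2. The ratios of *Spp1* and *Rbfox3* to *Esrrg* overlapped as well.

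Other markers of the same classes gave a mixed picture. Of 5 further alpha or fast markers 4 were tested, 2 with higher and 2 with lower estimates in the DiO+/DiI+ pools, and 0 passed after adjustment. Their median log2 fold change was 0.44, where that of all tested genes was 0.02. *Calca*, of the peptide CGRP that fast motor neurons make in quantity, averaged 3023 ± 867 CPM in DiO+/DiI+ pools and 8938 ± 5419 CPM in DiO+/DiI- pools (SD, n = 3 each), with a log2 fold change of -1.56 ± 0.49 (SE; edgeR unadjusted p = 0.00788, adjusted p = 0.618). Its groups did not overlap, and it went the other way from *Chodl* and *Mmp9*. *Vipr2*, a receptor of vasoactive intestinal peptide, averaged 27.8 ± 13.2 CPM in DiO+/DiI+ pools and 8.28 ± 6.86 CPM in DiO+/DiI- pools (log2 fold change 1.72 ± 0.66, SE; edgeR unadjusted p = 0.0242, adjusted p = 0.742), with overlapping groups. *Kcnq5*, of a voltage-gated potassium channel, averaged 23.6 ± 21.3 CPM in DiO+/DiI+ pools and 11.2 ± 4.25 CPM in DiO+/DiI- pools (edgeR adjusted p = 0.956).

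Of 8 further gamma or slow markers 6 were tested, 5 with higher and 1 with a lower estimate in the DiO+/DiI+ pools, and 0 passed after adjustment or at an unadjusted p under 0.05. Their median log2 fold change was 0.50, against 0.44 for the further alpha or fast markers and 0.02 for all tested genes. *Gfra1*, the GDNF co-receptor that gamma motor neurons keep at high level, averaged 858 ± 266 CPM in DiO+/DiI+ pools and 1339 ± 632 CPM in DiO+/DiI- pools (SD, n = 3 each). This was a log2 fold change of -0.64 ± 0.40 (SE), with an adjusted p of 0.930 in edgeR. *Prkcd*, a protein kinase C gene of slow motor neurons, had 119, 46 and 0 counts in DiO+/DiI+ pools 1, 2 and 3, against 81, 1 and 28 counts in DiO+/DiI- pools 1, 2 and 3. The libraries in which *Prkcd* was at 0 or 1 count were those in which *Sv2a* was lowest, DiO+/DiI+ pool 3 and DiO+/DiI- pool 2. *Kcnn3*, of the SK3 potassium channel of slow motor neurons, did not share this, with 15, 9 and 65 counts in the DiO+/DiI+ pools and 11, 8 and 38 counts in the DiO+/DiI- pools.

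Genes of general motor neuron identity showed no difference beyond the spread between pools. Of 10 such genes 9 were tested, 5 with higher and 4 with lower estimates, where 51.3% of all tested genes had higher estimates, 0 of them at an unadjusted p under 0.05, and their median log2 fold change was 0.09. *Slc5a7*, the choline transporter that supplies acetylcholine synthesis, averaged 368 ± 144 CPM in DiO+/DiI+ pools and 227 ± 75.6 CPM in DiO+/DiI- pools (SD, n = 3 each), with a log2 fold change of 0.69 ± 0.37 (SE; edgeR unadjusted p = 0.0905, adjusted p = 0.885). *Chat*, the acetylcholine-synthesising enzyme, averaged 111 ± 27.3 CPM in DiO+/DiI+ pools and 78.4 ± 21.5 CPM in DiO+/DiI- pools (edgeR adjusted p = 0.950).

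**Figure D4:**
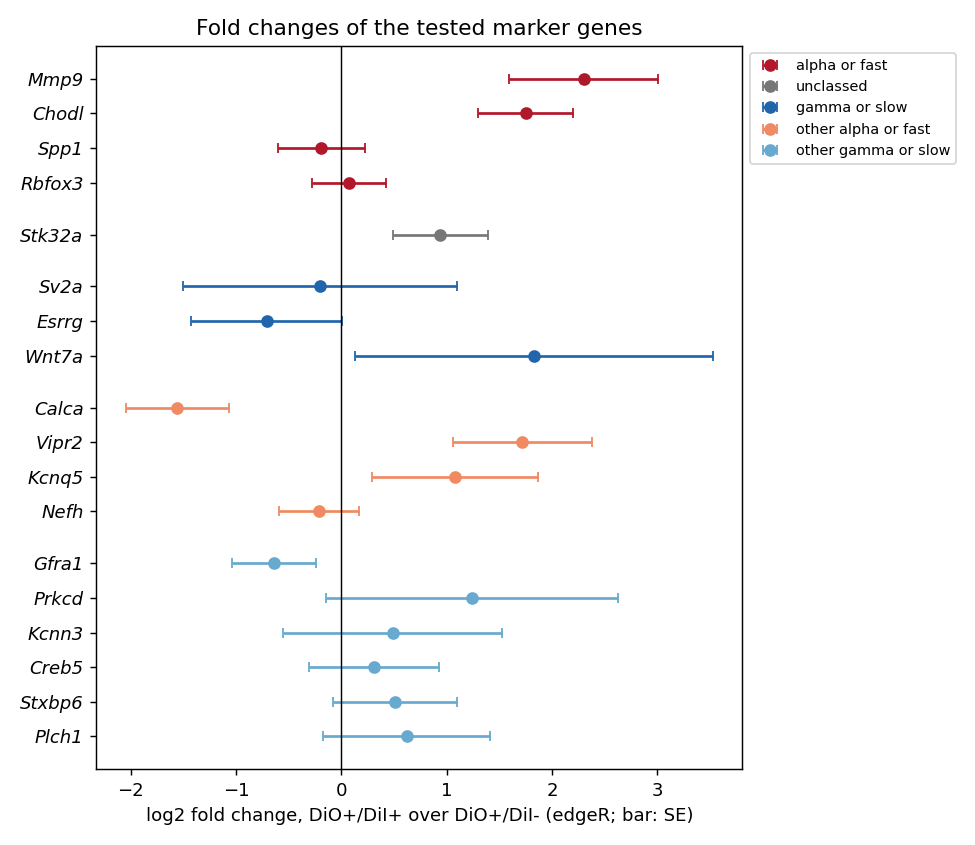
Log2 fold change of DiO+/DiI+ over DiO+/DiI- pools with its SE from edgeR for the 8 tested members and the tested genes of both further lists, 3 pools a group; no gene passed after adjustment. *Mmp9*, *Chodl* and *Vipr2* lie to the right of 0 and *Calca* to the left, and *Sv2a*, *Prkcd* and *Wnt7a* have the longest bars, with SEs of 1.30, 1.39 and 1.70.

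**Figure D5:**
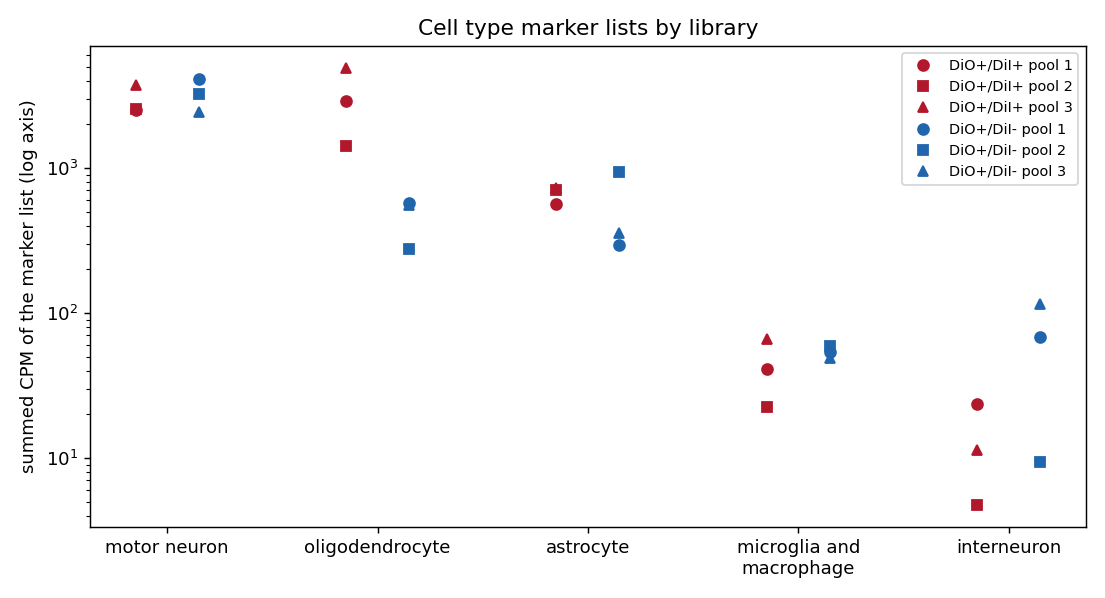
Summed CPM of cell type marker lists in each library on a log axis, DiO+/DiI+ pools (red) left of DiO+/DiI- pools (blue). Oligodendrocyte markers do not overlap between the groups (1421 to 4908 against 278 to 574 CPM), and motor neuron, astrocyte, microglia and interneuron markers do.

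Over the 6 libraries, log2 levels of *Mmp9* and *Chodl* had a Pearson r of 0.70 and a Spearman rho of 0.89, the highest r among the 28 pairs of tested members, followed by *Spp1* and *Esrrg* with an r of 0.69. These are descriptions over 6 points that include the group difference. The genes most like *Chodl* in log2 level, among 9935 genes with a mean of at least 5 CPM, were *Chrd* (r = 0.987), *Klhl29* (0.975) and *Srebf1* (0.973). Those most like *Mmp9* were *Ptprz1*, *Herc3* and *Gpr3*, each with r = 0.992, and those most like *Stk32a* were *Hdac4* (0.997), *Mal* (0.992) and *Zhx3* (0.991). For *Spp1* they were *Cpt2* (0.982), *Trnau1ap* (0.957) and *Gna11* (0.953), and for *Rbfox3* they were *Fgf11* (0.994), *Acvr1b* (0.992) and *Exoc1* (0.991). For *Sv2a* they were *Ankrd39* (0.992), *Arhgap20* (0.991) and *Ttll1* (0.990), for *Esrrg* *St8sia3os* (0.996), *Mief2* (0.985) and *Trnt1* (0.981), and for *Wnt7a* *Gpcpd1* (0.994), *Abcc4* (0.993) and *Hyou1* (0.992). With so few libraries, an r of at least 0.9 was reached by 24 to 145 genes per member.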

How the data were processed

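The deposited values are raw read counts per Ensembl gene. Whole transcripts had been amplified over 20 PCR cycles with a SMART-Seq HT kit without molecular identifiers named, per the labels' protocols, so counting limits cover counting error only. FastQC, HISAT2 and HTSeq were used with mm10, per the submitters' processing notes. The sources used here name no versions, annotation, strand setting or rule for multiply mapped reads. The labels mention 3 batches without assigning libraries to them, so batches could not be examined. Counts in the joint table and in the single-library files were identical.

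Members and lists were chosen with earlier results of these data known, and *Stk32a* was left out of both classes because its class was not certain. Genes passing edgeR's filterByExpr by group (12954 genes, 99.2% of counts) were scaled with TMM factors and compared in edgeR 4.0.16 (R 4.3.3) with its quasi-likelihood F-test, robust and two-sided, with Benjamini-Hochberg adjustment at 0.05. The common biological coefficient of variation came to 0.587. A standard error is the fold change divided by the root of F. Class means used log2 CPM with a prior count of 2. Positions and merged exon lengths are from GENCODE M21 on GRCm38 (mm10), where 99.8% of the identifiers were found, and upstream sequences are from RefSeq. Named genes were the members, up to 3 genes of smallest p per further list with *Calca* always, up to 4 per cell type marker list, and the 3 most alike genes per tested member. *Kcnn3*, *Nefm* and *Nefl* were named after their values were seen. Alternatives were other scalings, filters and prior counts, DESeq2 1.42.0, limma 3.58.1 (voom, quality weights), a replicate block and leaving out each library. The test was tested on simulated data. Figures were drawn with matplotlib 3.10.9.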

Additional observations from a re-analysis of the deposited data

How the results depend on the processing

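The count of genes past the threshold was 0 in the edgeR fit, where 753 had an unadjusted p under 0.05. It was 79 of 28513 genes without a filter on low counts. DESeq2, run without that filter but with its own default filter on mean count, gave 75 of 28406 genes with a p-value. With the replicate block the count was 23. It was 21 with scaling to motor neuron identity genes, chosen after the data were seen. It was 0 with limma voom and in all 6 runs that left out a library. *Chodl* and *Mmp9* kept their direction in all 15 alternatives, with log2 fold changes of 1.04 to 2.07 and 1.82 to 3.44. Their adjusted p ran from 0.00122 to 1, and *Chodl* passed in 2 alternatives (no filter, DESeq2) and *Mmp9* in 1 (no filter). Small values changed sign when a library was left out. Over these runs *Spp1* ran from -0.45 to 0.26, *Rbfox3* from -0.11 to 0.34 and *Sv2a* from -0.78 to 0.39. *Stk32a*, from 0.58 to 1.18, and *Esrrg*, from -1.10 to -0.31, kept their sign. With limma voom and quality weights *Sv2a* was at -2.18. *Spp1* was at 0.26 without DiO+/DiI- pool 1. *Rbfox3* was at -0.11 and -0.02 without DiO+/DiI+ pools 2 and 3, and at -0.07 and -0.04 without DiO+/DiI- pools 1 and 3. *Sv2a* was at 0.39 without DiO+/DiI+ pool 3, and at 0.08 and 0.09 without DiO+/DiI- pools 1 and 3. *Wnt7a* ran from 0.80 without DiO+/DiI+ pool 1 to 7.10 without DiO+/DiI- pool 3, which leaves its group at 0 counts. *Wnt7a* had no value under the stricter filter. The class difference of 1.27 was 2.39 with *Mmp9* and *Chodl* alone, 0.93 without *Sv2a*, both chosen after the data were seen, and 0.90 to 1.68 with a library left out. Higher genes numbered 3 of 4 under the stricter filter and 3 of 6 with limma voom for the further gamma or slow markers. With a library left out they numbered 2 to 4 for the further alpha or fast markers and 3 to 7 for motor neuron identity. The numbers were not taken as pairs because the labels do not say that equal numbers share an animal or a batch. Deviations of same-numbered pools correlated at 0.07, 0.23 and 0.20, against -0.19 to 0.02 for differently numbered pools. Every pool correlated best with its own number, so pairing by number remains possible. With the replicate block, *Chodl* had an adjusted p of 0.208 and *Mmp9* of 0.293. Counting error, which depth sets, is largest relative to the value for *Esrrb* and *Wnt7a*, with 45 and 69 counts over all libraries, while *Htr1d* had 0.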
